A study of Mus musculus with 18 samples.

Results

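The genes described here are 10 regulators of cell cycle exit, chosen by name: the cyclin-dependent kinase inhibitors *Cdkn1a*, *Cdkn1b* and *Cdkn2c*, the pocket protein genes *Rb1* and *Rbl2*, the D-type cyclin genes *Ccnd1*, *Ccnd2* and *Ccnd3*, and the p53-linked genes *Mdm2* and *Gadd45a*. The choice was made with earlier results of these data known, including the fall of *Cdkn1a*. Every probe annotated with 1 of these symbols was taken, which gave 23 probes of the 46632 on the array and 10 of the 17711 genes named by a symbol. Of the 23 probes, 18 were detected on all 18 arrays (detection p under 0.05), and together they represented 9 of the 10 genes. *Rbl2* had a single probe, ILMN_2774662, which no array detected.

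A myoblast leaves the cell cycle for good before it fuses into a myotube. D-type cyclins with their kinases phosphorylate the retinoblastoma family of pocket proteins, which releases E2F factors and opens S phase, while the kinase inhibitors of the Cip/Kip and Ink4 families hold that step shut. In muscle the p21 protein encoded by *Cdkn1a* is switched on during differentiation with the help of the myogenic factors, hypophosphorylated Rb keeps the nuclei of myotubes out of S phase, and cyclin D3 is retained while cyclin D1 is lost. *Cdkn1a*, *Mdm2*, *Gadd45a* and *Ccng1* are also textbook targets of p53.

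All cultures were primary muscle cells from limb muscles of neonatal C57BL/10 mice aged 3 to 5 days, switched to differentiation medium on day 4 and harvested on day 6, 48 h after induction. In 7 cultures an siRNA against dystrophin was added on days 2 and 4, in 7 an siRNA against firefly GL2 luciferase was added on the same days as treatment control, and 4 cultures stayed untreated. Muscle homogenates of several mice were mixed on each of 4 occasions and cultures were seeded from the mixture, so cultures of an occasion shared their cells and p-values treat them as separate. Dystrophin was targeted with 1 siRNA, so the loss of dystrophin and other actions of that siRNA cannot be told apart in the comparison with GL2. The siRNAs were delivered with Oligofectamine, and no mock transfection of the untreated cultures is described. In comparisons with untreated, the siRNA, the reagent and the handling therefore cannot be told apart.

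Total RNA of each culture was read on 1 Illumina array, with 17551 to 18530 probes detected per array and a median bead signal of 92.6 to 112. The *Dmd* probe ILMN_2718576 was at 8.32 ± 0.16 (mean log2 level, SD, n = 7) in dystrophin siRNA-treated, 10.32 ± 0.16 (n = 7) in GL2 siRNA-treated and 10.22 ± 0.12 (n = 4) in untreated myotubes, and no dystrophin siRNA-treated array reached a control array on it. A dimmer *Dmd* probe, ILMN_2418806, also detected on all 18 arrays, fell less and overlapped the GL2 siRNA arrays. By limma it differed by -0.58 from GL2 siRNA (adjusted p = 0.039) and by -0.67 from untreated (adjusted p = 0.11). Markers of differentiated muscle were present, with 13 of 14 measured detected, among them *Myog*, *Ckm*, *Des*, *Acta1* and *Casq2*. A marker counted as detected if its brightest probe was detected on at least 4 arrays. The fibroblast markers measured (9 of 9) and 4 of 6 macrophage markers were detected too, so markers of more than 1 cell type were present, and in such bulk RNA fewer cells of a type and less RNA per cell cannot be told apart.

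The promoters of *Cdkn1a* and *Gadd45a*, p53-linked members that both fell against GL2 siRNA, are shown with that of *Mdm2*, the other p53-linked member. *Cdkn2c*, of which 1 probe of 3 fell, is described by its motifs only. Each line is a RefSeq window of GRCm38.p6 from 250 bases before to 50 bases after an annotated start, read 5′ to 3′ on the gene's strand, with capitals at matches to the p53 half-site and to the E-box CANNTG, the motif bound by myogenic factors. Windows were found for 7 of the 10 genes, 10 windows in all. The annotation gives *Cdkn1a* 2 starts on the plus strand, at chr17:29090729-29091028 and chr17:29093519-29093818, and the arrays do not say which was used. *Gadd45a* lies on the minus strand at chr6:67037358-67037657 and *Mdm2* on the minus strand at chr10:117710709-117711008.
Cdkn1a, upstream start: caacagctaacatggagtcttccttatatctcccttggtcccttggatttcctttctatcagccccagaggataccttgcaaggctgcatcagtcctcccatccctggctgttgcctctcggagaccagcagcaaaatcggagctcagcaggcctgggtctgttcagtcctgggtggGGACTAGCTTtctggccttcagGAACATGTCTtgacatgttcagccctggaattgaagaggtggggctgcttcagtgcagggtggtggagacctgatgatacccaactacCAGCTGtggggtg
Cdkn1a, downstream start: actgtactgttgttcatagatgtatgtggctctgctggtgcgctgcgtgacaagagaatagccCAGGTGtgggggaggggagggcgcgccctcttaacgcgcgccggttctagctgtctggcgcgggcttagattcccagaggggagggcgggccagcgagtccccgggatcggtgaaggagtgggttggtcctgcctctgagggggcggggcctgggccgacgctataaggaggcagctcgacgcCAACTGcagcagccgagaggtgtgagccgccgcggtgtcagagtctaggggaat
Gadd45a: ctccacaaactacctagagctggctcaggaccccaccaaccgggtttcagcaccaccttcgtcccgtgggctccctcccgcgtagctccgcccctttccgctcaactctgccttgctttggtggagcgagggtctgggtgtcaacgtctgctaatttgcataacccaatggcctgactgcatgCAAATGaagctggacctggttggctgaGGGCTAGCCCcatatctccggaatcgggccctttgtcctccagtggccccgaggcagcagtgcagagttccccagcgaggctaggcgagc
Mdm2: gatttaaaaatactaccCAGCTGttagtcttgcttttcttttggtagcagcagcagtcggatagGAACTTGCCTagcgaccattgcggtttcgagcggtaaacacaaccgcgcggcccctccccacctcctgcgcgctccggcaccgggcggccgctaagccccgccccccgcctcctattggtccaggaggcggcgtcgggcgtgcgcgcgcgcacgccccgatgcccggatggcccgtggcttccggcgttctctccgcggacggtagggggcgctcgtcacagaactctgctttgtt

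The upstream *Cdkn1a* window held 2 p53 half-sites, GGACTAGCTT from base 178 and GAACATGTCT from base 200, and an E-box, CAGCTG, from base 288. *Gadd45a* held 1 half-site from base 211 and *Mdm2* 1 from base 65. Of all 32851 RefSeq windows of this length, 8.36% held at least 1 half-site, 0.359% held at least 2 and 72.3% held an E-box, either strand counted. The GC box GGGCGG, not capitalised above and present in 35.7% of all windows, occurred in a window of every member for which one was found. For *Cdkn1a* it lay in the downstream window from bases 147 and 205, and for *Cdkn2c* in the upstream window at 4 places. Neither *Cdkn2c* window held a half-site. These matches describe letters only, and binding was not measured.

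*Cdkn1a* was lower in dystrophin siRNA-treated myotubes than in either control. *Gadd45a* and 1 of 3 *Cdkn2c* probes, a dim one, were lower than with GL2 siRNA. No D-type cyclin, *Rb1*, *Cdkn1b* or *Mdm2* probe passed the test. The test was limma's moderated test with Benjamini-Hochberg adjustment over all 46632 probes and a threshold of 0.05. Against untreated cultures 2 of the 23 member probes passed, both lower and both of *Cdkn1a*, where 0.907% of all probes did. The study had already listed *Cdkn1a* as lower from these arrays, so counts that include it are no independent evidence about the members. For GL2 siRNA against untreated 0 passed, where 0.733% of all probes did. For dystrophin siRNA against GL2 siRNA 4 passed, all lower and among them both *Cdkn1a* probes, where 3.76% of all probes did. Among the 14994 probes detected on all arrays, the shares called were 2.1%, 1.65% and 9.09%. An unadjusted p under 0.05 was given by 5, 8 and 5 of the 23 member probes, beside 9.36%, 11.1% and 13.8% of all probes. Among all probes detected on every array these shares were higher, at 14.5%, 18.6% and 26.7%. The 18 detected member probes had median differences of -0.07, 0.11 and -0.11 (log2) in these comparisons, beside 0.02, 0.01 and 0.01 for all probes detected on every array.

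*Cdkn1a*, which encodes the kinase inhibitor p21, had 2 probes to the same transcript, both bright. On ILMN_1214871 the untreated arrays 1 to 4 read 14.57, 14.65, 14.70 and 14.62 (log2 normalized level). The GL2 siRNA arrays 1 to 7 read 14.97, 14.87, 14.83, 14.76, 14.80, 15.29 and 15.05. The dystrophin siRNA arrays 1 to 7 read 14.34, 13.86, 13.97, 13.98, 13.73, 14.04 and 14.27. The 3 groups did not overlap: all GL2 siRNA arrays lay above all untreated arrays, and all dystrophin siRNA arrays lay below them. Against GL2 siRNA the level fell by 0.91 (SE 0.10, adjusted p = 1.2e-05), to 53.2% of the GL2 mean. Against untreated it fell by 0.61 (SE 0.12, adjusted p = 0.016), to 65.7%.

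The other *Cdkn1a* probe, ILMN_2634083, gave the same order. It read 14.10, 14.10, 14.27 and 14.25 on the untreated arrays. It read 14.37 at the lowest, 14.60 at the median and 14.83 at the highest of the GL2 siRNA arrays, and 13.35, 13.62 and 13.94 of the dystrophin siRNA arrays. Again the groups did not overlap. The difference was -0.91 (SE 0.10, adjusted p = 5.7e-06) against GL2 siRNA and -0.52 (SE 0.11, adjusted p = 0.029) against untreated. By limma the GL2 siRNA arrays stood 0.38 above untreated on this probe (SE 0.11, adjusted p = 0.15) and 0.30 above on ILMN_1214871 (SE 0.12, adjusted p = 0.34). Both were short of the threshold although every GL2 siRNA array exceeded every untreated array on both probes. The share of all probes with such separation was not counted, here and below, so separation alone does not mark the members out. Of all probes detected on every array, 18.6% had an unadjusted p under 0.05 for GL2 siRNA against untreated by limma. The comparisons share arrays, so the gap to GL2 siRNA and the gap to untreated are not independent.

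The *Cdkn1a* difference from GL2 siRNA passed on both probes whichever array was left out, with adjusted p of at most 5.1e-05 and 2.6e-05. The difference from untreated rested on the 4 untreated arrays and lost its call when single arrays were left out. On ILMN_1214871 leaving out untreated array 2, 3 or 4 gave adjusted p of 0.057, 0.071 and 0.055. On ILMN_2634083 leaving out untreated array 1, 2, 3 or 4 gave 0.062, 0.061, 0.12 and 0.11, and leaving out dystrophin siRNA array 2, 3, 4 or 5 gave 0.052, 0.053, 0.050 and 0.057. The size stayed between -0.66 and -0.56 on the first probe and between -0.57 and -0.47 on the other. Fitting only the 11 arrays of these groups gave an adjusted p of 0.084 on ILMN_2634083, and median centring gave 0.051.

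**Figure D1:**
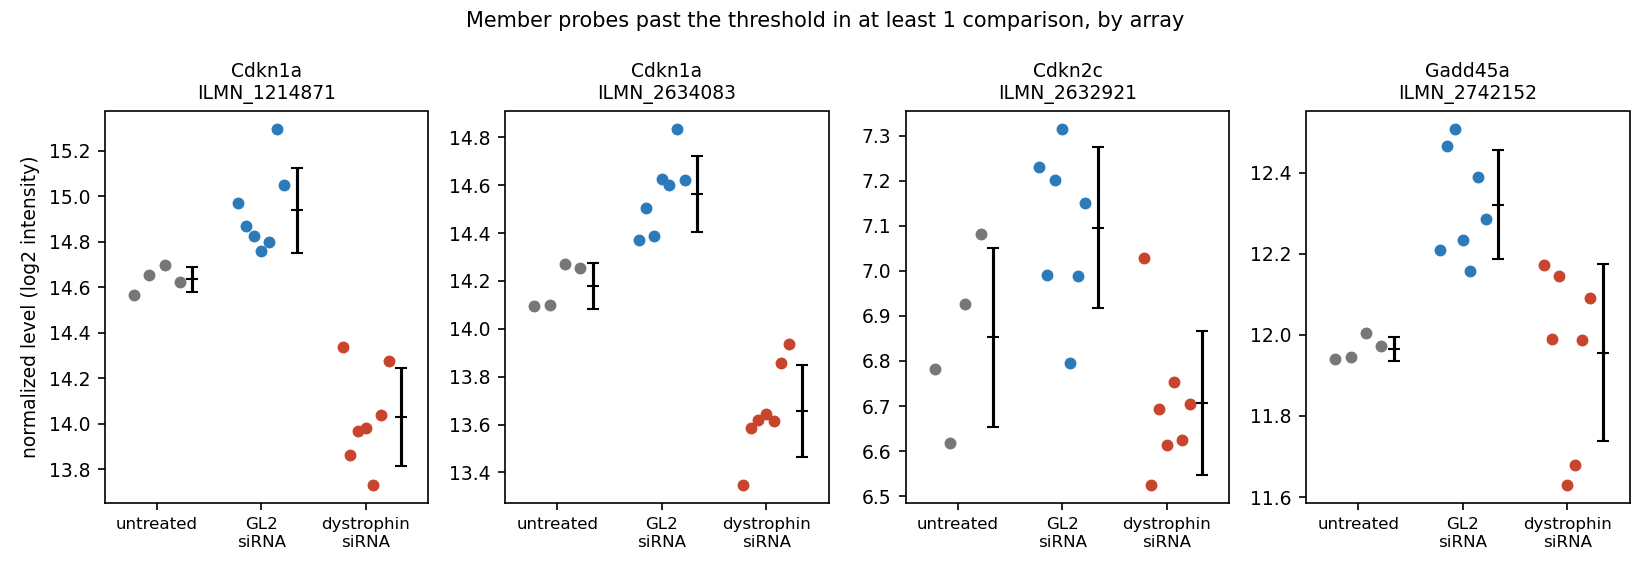
Normalized level (log2 intensity, y axis, not starting at 0) of the 4 member probes that passed the test in at least 1 comparison, 1 point per array in order of array number, by group (x axis), with the mean and SD of each group beside its points. On both Cdkn1a probes the 7 dystrophin siRNA arrays lie below the 4 untreated and the 7 GL2 siRNA arrays, whereas the groups overlap for Cdkn2c, and for Gadd45a all 7 GL2 siRNA arrays and 3 of the 7 dystrophin siRNA arrays lie above the untreated ones.

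The arrays were clustered by how they deviated from their group means and cut into 4 sets, as many as the preparation occasions. The number was thus given and not found. Each set held 1 untreated array and 1 or 2 arrays per siRNA. No label ties an array to a preparation occasion, so they are called sets here. Within every set *Cdkn1a* was lower with dystrophin siRNA than with GL2 siRNA, by -0.63 to -1.01 on ILMN_1214871 and by -0.83 to -1.02 on ILMN_2634083. It was also lower than the untreated array of the set in all 4, by -0.23 to -0.84 and by -0.36 to -0.75. With the sets as a block in limma the GL2 siRNA difference from untreated on ILMN_2634083 was 0.36 (adjusted p = 0.029, beside 0.15 without the block). The dystrophin siRNA differences from untreated then had adjusted p of 0.0067 and 0.0013. The sets were formed from the deviations of these same arrays, so these p-values are likely too small and are no further support. The sets held 46.0% and 76.9% of the spread within groups on these probes, beside a median of 42.4% over all detected probes. These shares are likewise raised by how the sets were formed.

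*Cdkn1b* encodes p27, the second Cip/Kip inhibitor. Its detected probe, ILMN_2638428, varied more between arrays than any *Cdkn1a* probe, with SDs of 0.25 in untreated, 0.50 in GL2 siRNA-treated and 0.37 in dystrophin siRNA-treated cultures. It was dim, with bead signals of 154 to 300, beside 9112 to 38063 on the *Cdkn1a* probes. The untreated arrays lay between 7.11 and 7.72, the GL2 siRNA arrays between 6.18 and 7.43 and the dystrophin siRNA arrays between 6.46 and 7.71, so all groups overlapped. Dystrophin siRNA differed from GL2 siRNA by 0.18 (95% interval -0.25 to 0.61, adjusted p = 0.80) and from untreated by -0.43 (-0.93 to 0.07, adjusted p = 0.62). These intervals do not show that the level was the same. The other probe, ILMN_1228598, was detected on no array.

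*Cdkn2c* encodes the Ink4 inhibitor p18, which binds CDK4 and CDK6, and its 3 probes did not give a single picture. ILMN_2632921 read 6.78, 6.62, 6.93 and 7.08 in untreated cultures, 7.23, 6.99, 7.20, 7.31, 6.80, 6.99 and 7.15 with GL2 siRNA, and 7.03, 6.52, 6.69, 6.61, 6.75, 6.63 and 6.70 with dystrophin siRNA. Of the 7 dystrophin siRNA arrays, 6 lay below every GL2 siRNA array, and array 1 lay among them. The difference from GL2 siRNA was -0.39 (SE 0.10, adjusted p = 0.034). It did not pass when GL2 siRNA array 1, 3, 4 or 7 was left out (adjusted p = 0.072, 0.063, 0.080 and 0.068), or dystrophin siRNA array 2, 3, 4, 5, 6 or 7 (0.079, 0.061, 0.072, 0.054, 0.068 and 0.054).

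The brightest *Cdkn2c* probe, ILMN_1228366, differed from GL2 siRNA by -0.14 (95% interval -0.30 to 0.01, adjusted p = 0.39), and ILMN_2420938 by -0.10 (-0.35 to 0.16, adjusted p = 0.83). ILMN_1228366 is annotated to the same transcript as ILMN_2632921, ILMN_2420938 to a cDNA clone. On both of these probes every GL2 siRNA array exceeded every untreated array, by 0.22 (adjusted p = 0.31) and 0.43 (adjusted p = 0.21) in the mean. Dystrophin siRNA against untreated gave 0.08, 0.34 and -0.15 on the 3 probes, none past the threshold.

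Of the pocket protein members *Rb1* was detected and *Rbl2* was not. ILMN_2679620 read 9.76, 9.85, 10.14 and 10.12 in untreated cultures. GL2 siRNA arrays ran from 9.55 through a median of 10.10 to 10.54, and dystrophin siRNA arrays from 9.64 through 10.26 to 10.45. All 3 groups overlapped. The difference between the siRNAs was -0.05 (95% interval -0.38 to 0.28, adjusted p = 0.95), and 69.5% of the spread within groups lay between the sets of arrays.

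The D-type cyclins activate CDK4 and CDK6 in G1. *Ccnd1* had 5 detected probes, and none passed in any comparison. Against GL2 siRNA the dystrophin siRNA differences ran from -0.17 to 0.04, and the widest interval, on ILMN_1225673, reached from -0.57 to 0.26. Against untreated, 4 probes differed by -0.30 to -0.12 in the mean and ILMN_1219723 was higher by 0.21 (adjusted p = 0.49). On ILMN_1219723 the GL2 siRNA arrays, 7.57 to 7.86, lay above all untreated arrays, 7.35 to 7.53, with a difference of 0.24 (adjusted p = 0.33).

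*Ccnd2* had 3 detected probes, and all were higher with dystrophin siRNA than with GL2 siRNA, short of the threshold. On ILMN_1217770 the untreated arrays read 13.38, 13.24, 13.48 and 13.44. The GL2 siRNA arrays read 13.30, 13.30, 13.53, 13.41, 13.45, 13.52 and 13.03, and the dystrophin siRNA arrays 13.34, 13.48, 13.55, 13.54, 13.79, 13.67 and 13.65. Of the dystrophin siRNA arrays, 5 lay above every GL2 siRNA array. The difference was 0.21 (95% interval 0.02 to 0.40, adjusted p = 0.29), and on ILMN_2700166 and ILMN_1225932 it was 0.19 (adjusted p = 0.45 on each). Against untreated the same probes gave 0.19, -0.05 and 0.08.

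*Ccnd3*, whose cyclin accumulates in differentiating muscle, was detected on every array by ILMN_1246473 and on 5 arrays by ILMN_2661849. On ILMN_1246473 untreated arrays lay between 9.21 and 9.60, GL2 siRNA arrays between 9.18 and 9.95 and dystrophin siRNA arrays between 8.83 and 10.12. The dystrophin siRNA arrays spread most, with arrays 1 and 7 at 9.78 and 10.12 and array 5 at 8.83. The difference from GL2 siRNA was -0.13 (95% interval -0.50 to 0.24, adjusted p = 0.84) and from untreated 0.02 (-0.41 to 0.46, adjusted p = 0.99).

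*Gadd45a*, a stress-induced gene whose product takes part in growth arrest and repair, was measured by ILMN_2742152. The untreated arrays were tightly grouped at 11.94, 11.94, 12.00 and 11.97. The GL2 siRNA arrays read 12.21, 12.47, 12.51, 12.23, 12.16, 12.39 and 12.29, and the dystrophin siRNA arrays 12.17, 11.99, 12.14, 11.63, 11.68, 11.99 and 12.09. Of the 7 dystrophin siRNA arrays, 6 lay below every GL2 siRNA array, and they lay on both sides of the untreated ones. The level fell by 0.36 against GL2 siRNA (SE 0.10, adjusted p = 0.037) and differed from untreated by -0.01 (95% interval -0.25 to 0.23, adjusted p = 0.99). The GL2 siRNA arrays were 0.36 above untreated in the mean (limma, adjusted p = 0.19), with no overlap.

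The *Gadd45a* difference was near the threshold. It did not pass without GL2 siRNA array 2, 3, 6 or 7 (adjusted p = 0.077, 0.075, 0.073 and 0.059) or without dystrophin siRNA array 2, 4, 5 or 6 (0.059, 0.083, 0.087 and 0.057). Median centring in place of quantile normalization gave an adjusted p of 0.10, and fitting only the siRNA arrays gave 0.078.

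*Mdm2* encodes the ubiquitin ligase that removes p53 and is itself a p53 target. ILMN_1250774 read 12.40, 12.29, 12.32 and 12.39 in untreated cultures, 12.51, 12.46, 12.33, 12.29, 12.33, 12.50 and 12.52 with GL2 siRNA, and 12.40, 12.27, 12.10, 12.24, 12.08, 12.25 and 12.50 with dystrophin siRNA. Of the dystrophin siRNA arrays, 5 lay below every GL2 siRNA array, and arrays 1 and 7 lay among them. The difference from GL2 siRNA was -0.16 (95% interval -0.32 to 0.01, adjusted p = 0.41), and from untreated -0.09 (adjusted p = 0.85). ILMN_1229882 was detected on no array.

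**Figure D2:**
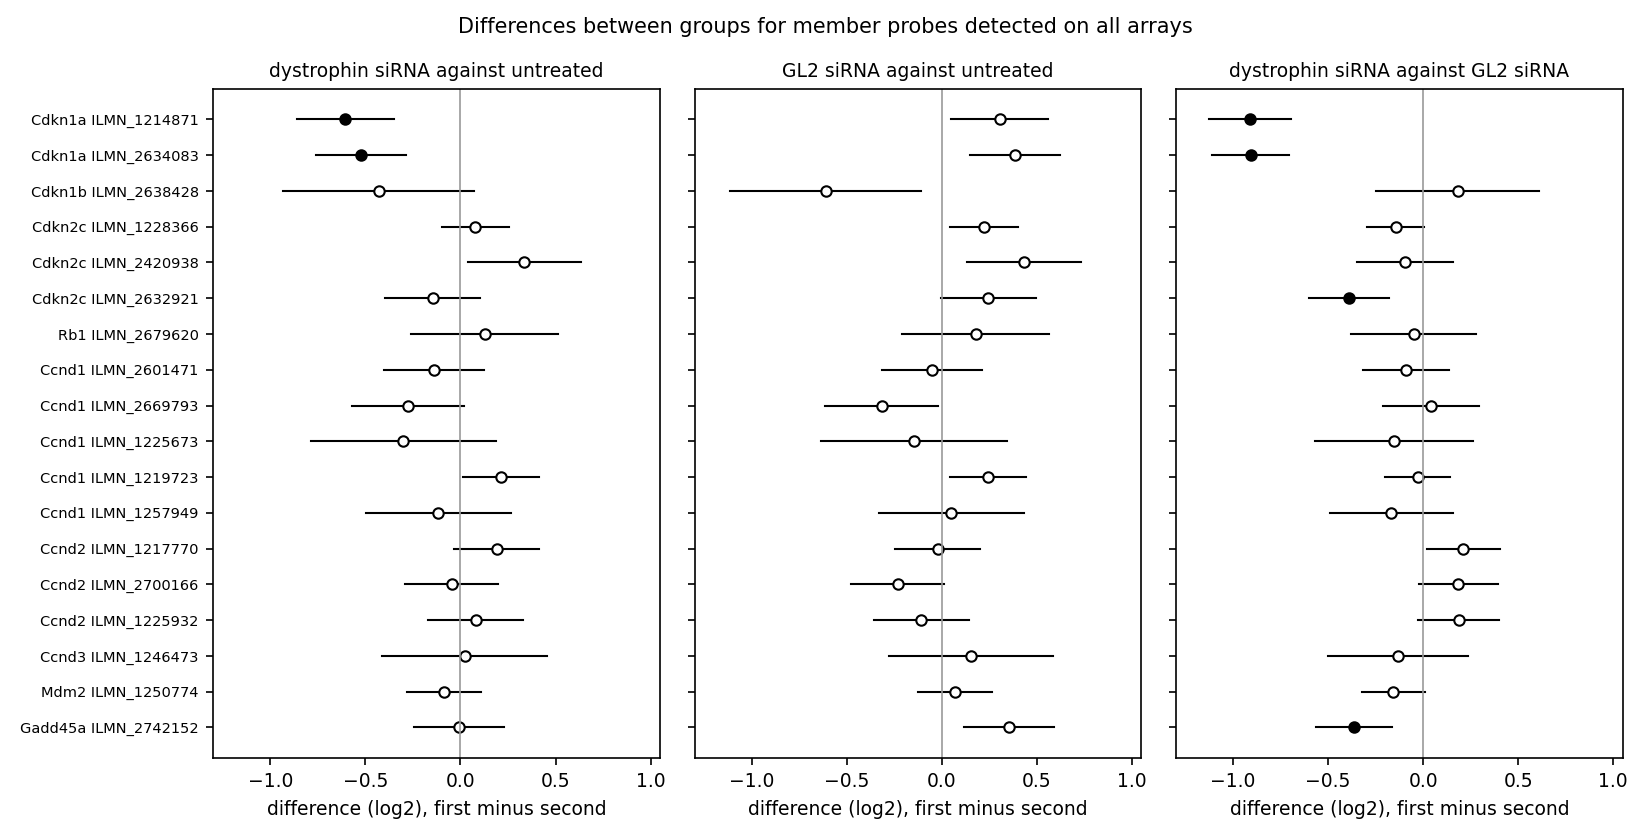
Difference in log2 level (x axis, first group minus second) of the 18 member probes detected on all arrays (y axis), in 3 panels for the 3 comparisons, with 95% intervals as lines. Filled points passed the adjusted threshold: 2 Cdkn1a probes against untreated, none for GL2 siRNA against untreated, and 2 Cdkn1a probes, 1 Cdkn2c probe and Gadd45a for dystrophin siRNA against GL2 siRNA.

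Same-numbered dystrophin and GL2 siRNA arrays deviated together, so a difference was also taken within each of the 7 pairs. Arrays 2 and 3, 4 and 5, and 6 and 7 of both siRNAs shared a set, so the 7 differences are not all independent. *Cdkn1a* was lower in 7 of 7 pairs, between -1.25 and -0.63 on ILMN_1214871 and between -1.02 and -0.68 on ILMN_2634083. *Gadd45a* was lower in 7 of 7 pairs, from -0.60 to -0.04, as was *Cdkn2c* on ILMN_2632921, from -0.70 to -0.04, while the other *Cdkn2c* probes were lower in 6 of 7 (ILMN_1228366, -0.27 to 0.03) and 5 of 7 (ILMN_2420938, -0.24 to 0.16). *Mdm2* was lower in 7 of 7 pairs too, from -0.25 to -0.01. *Ccnd2* on ILMN_1217770 was higher in 7 of 7, by 0.02 to 0.61, while its 2 other detected probes were higher in 6 of 7. The *Cdkn1b*, *Rb1*, *Ccnd1* and *Ccnd3* probes went in either direction. How many of all probes go one way in 7 of 7 pairs was not counted.

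**Figure D3:**
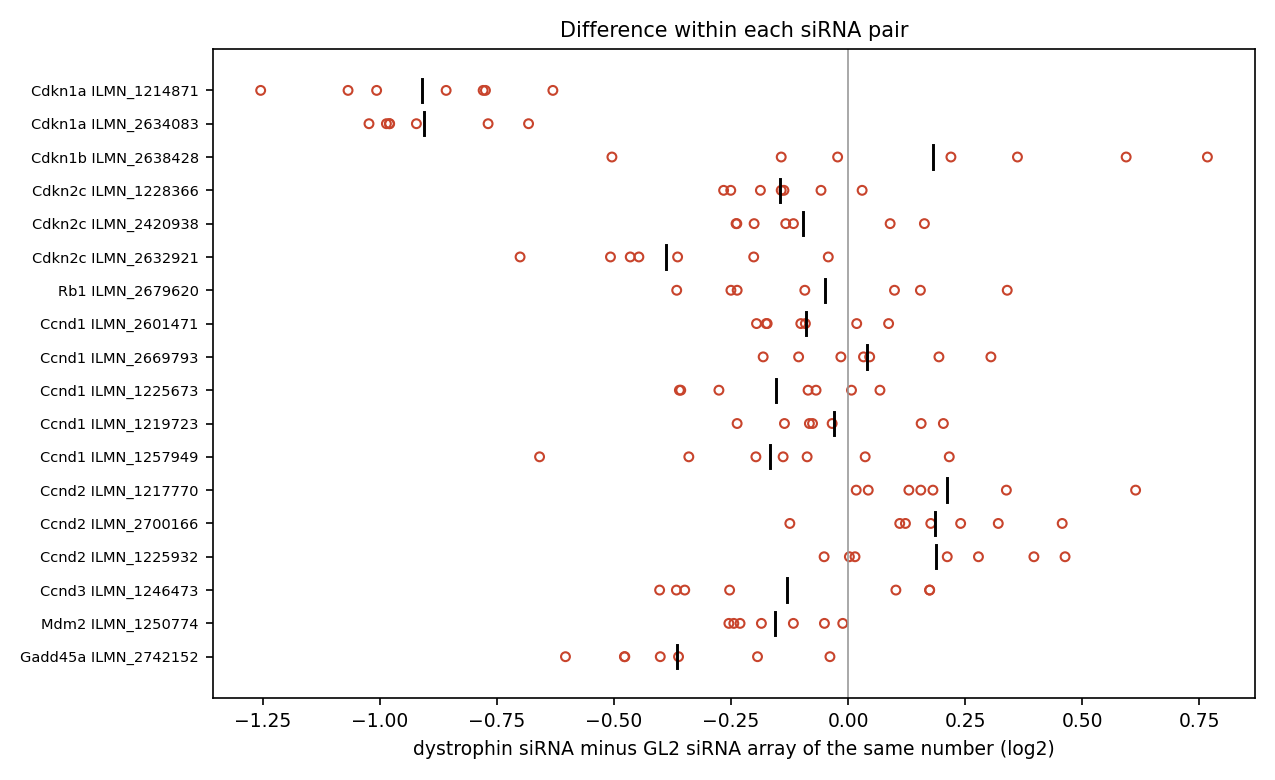
Difference in log2 level between the dystrophin siRNA and the GL2 siRNA array of the same number (x axis) for the 18 detected member probes (y axis), 1 open point for each of 7 pairs and a bar at their mean. The 14 points of the 2 Cdkn1a probes lie between -1.25 and -0.63, apart from those of nearly all other members.

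The genes whose level followed *Cdkn1a* most closely over the 18 arrays were taken among 11809 probes with 1 symbol detected on all arrays. They were *Actn3*, the fast-fibre alpha-actinin (Pearson r = 0.97 with ILMN_1214871), and *Prxl2b*, *Zcchc17*, *Tmem38a*, which encodes a cation channel of the sarcoplasmic reticulum, and *Slc25a12*, a mitochondrial aspartate-glutamate carrier (r = 0.95 each). These correlations include the group differences. *Actn3* differed by -0.82 between dystrophin and GL2 siRNA (adjusted p = 3.7e-05) and by -0.50 between dystrophin siRNA and untreated (adjusted p = 0.057). After the group means were subtracted, the highest were *Rab1b* (r = 0.90), *Dlgap4*, *Acot7* and *Ddc* (0.89 each) and *Map1lc3a* (0.88), a different group of names. Of these 5, *Map1lc3a* differed between the siRNAs (-0.36, adjusted p = 0.0077). The 2 *Cdkn1a* probes themselves correlated at 0.90 in level and 0.26 in these deviations, so variation within a group was shared only weakly even between probes for 1 transcript.

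The other genes of the G1 and p53 pathways are each given by their lead probe, the brightest of the symbol. A list gene counted as detected if this probe was detected on at least 4 arrays. Shares and medians of all detected probes are over those detected on every array, a stricter rule. Between the siRNAs 1 of 5 further inhibitors and pocket proteins and 2 of 8 E2F and DREAM genes detected passed. So did 0 of 8 G1 and S phase genes and 1 of 17 p53 pathway genes, beside 9.09% of all probes detected on every array. Of 5 other inhibitors and pocket proteins measured, *Cdkn2b*, which encodes the Ink4 inhibitor p15, was higher with dystrophin than with GL2 siRNA (0.35, SE 0.09, adjusted p = 0.043), the opposite direction to *Cdkn1a*. Its arrays ran from 10.73 to 11.27 with GL2 siRNA and from 11.09 to 11.44 with dystrophin siRNA. The call was lost on leaving out any of 13 arrays (untreated 1 and 4, GL2 siRNA 1, 2, 4, 5, 6 and 7, dystrophin siRNA 2, 3, 4, 5 and 6), with adjusted p up to 0.097. It was also lost with median centring (0.082) and with only the compared groups (0.065).

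Of 14 E2F and DREAM genes measured and 8 detected, 2 were lower with dystrophin than with GL2 siRNA. *E2f2*, an activating E2F that drives S phase genes, ran from 11.64 to 12.11 with GL2 siRNA, from 11.18 to 11.28 untreated and from 10.68 to 11.30 with dystrophin siRNA. It fell by 0.75 against GL2 siRNA (SE 0.10, adjusted p = 0.00013) without overlap, and passed whichever array was left out. With GL2 siRNA it stood 0.56 above untreated by limma (adjusted p = 0.035). This call was lost when untreated array 1, 2, 3 or 4 was left out, or array 2, 4 or 6 of GL2 siRNA (adjusted p up to 0.12). It was also lost with median centring (0.10). A second *E2f2* probe, detected on 12 arrays, differed by -0.16 (adjusted p = 0.86). *Tfdp1*, the partner of E2F proteins, fell by 0.31 (SE 0.08, adjusted p = 0.034), lost without GL2 siRNA array 2, 4, 5 or 6 or dystrophin siRNA array 1, 3, 5 or 7 (up to 0.076) and with median centring (0.21).

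Of 11 G1 and S phase kinases and cyclins measured, 0 passed in either dystrophin siRNA comparison by limma, with 3 of 8 detected at an unadjusted p under 0.05 in each. The share of all probes detected on every array was 14.5% against untreated and 26.7% against GL2 siRNA. The closest against GL2 siRNA was *Skp2*, a subunit of the ubiquitin ligase that removes p27 (0.34, adjusted p = 0.055). *Cdk7*, the kinase that activates other CDKs, was 0.42 higher with GL2 siRNA than untreated (adjusted p = 0.040), a call lost without any untreated array, GL2 siRNA array 1, 2, 4, 5, 6 or 7, or dystrophin siRNA array 4 or 5 (up to 0.14), with median centring (0.23) and with only the compared groups (0.093).

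Of 20 p53 pathway genes measured beside the members and 17 detected, 1 passed. *Ccng1*, encoding cyclin G1, had a lead probe at 12.36 to 12.59 untreated, 12.64 to 13.08 with GL2 siRNA and 12.23 to 12.54 with dystrophin siRNA. It fell by 0.44 against GL2 siRNA (SE 0.08, adjusted p = 0.0030) and was 0.44 higher with GL2 siRNA than untreated (adjusted p = 0.044). The call against untreated was lost without any untreated array, GL2 siRNA array 1, 4, 5, 6 or 7, or dystrophin siRNA array 1, 3, 4, 5 or 6 (up to 0.15), with median centring (0.085) and with only the compared groups (0.12). Its other detected probes went the other way: ILMN_2710229 differed by 0.21 (adjusted p = 0.36) and ILMN_2702233 by 0.23 (adjusted p = 0.50) between the siRNAs, and ILMN_2710229 was 0.51 higher with dystrophin siRNA than untreated (adjusted p = 0.041). The direction of *Ccng1* thus depends on the probe. The median of the 17 detected lead probes was 0.12 between the siRNAs, 11 higher and 6 lower, beside 0.01 for all detected probes.

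The genes of proliferating cells did not pass in any comparison. Of 22 measured and 20 detected, which included *Top2a*, *Cdk1*, *Pcna*, *Aurka* and the *Mcm* genes of the replicative helicase, 0 passed by limma, with 6, 4 and 1 at an unadjusted p under 0.05. Of all probes detected on every array, 14.5%, 18.6% and 26.7% had such a p. Against untreated all 20 were higher in the mean with dystrophin siRNA, from 0.08 to 0.39 (median 0.24, beside 0.02 for all detected probes). With GL2 siRNA 19 of 20 were higher than untreated (median 0.12). Between the siRNAs the range was -0.07 to 0.21 (median 0.08). The largest difference from untreated was *Aurka*, at 0.39 (adjusted p = 0.14).

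**Figure D4:**
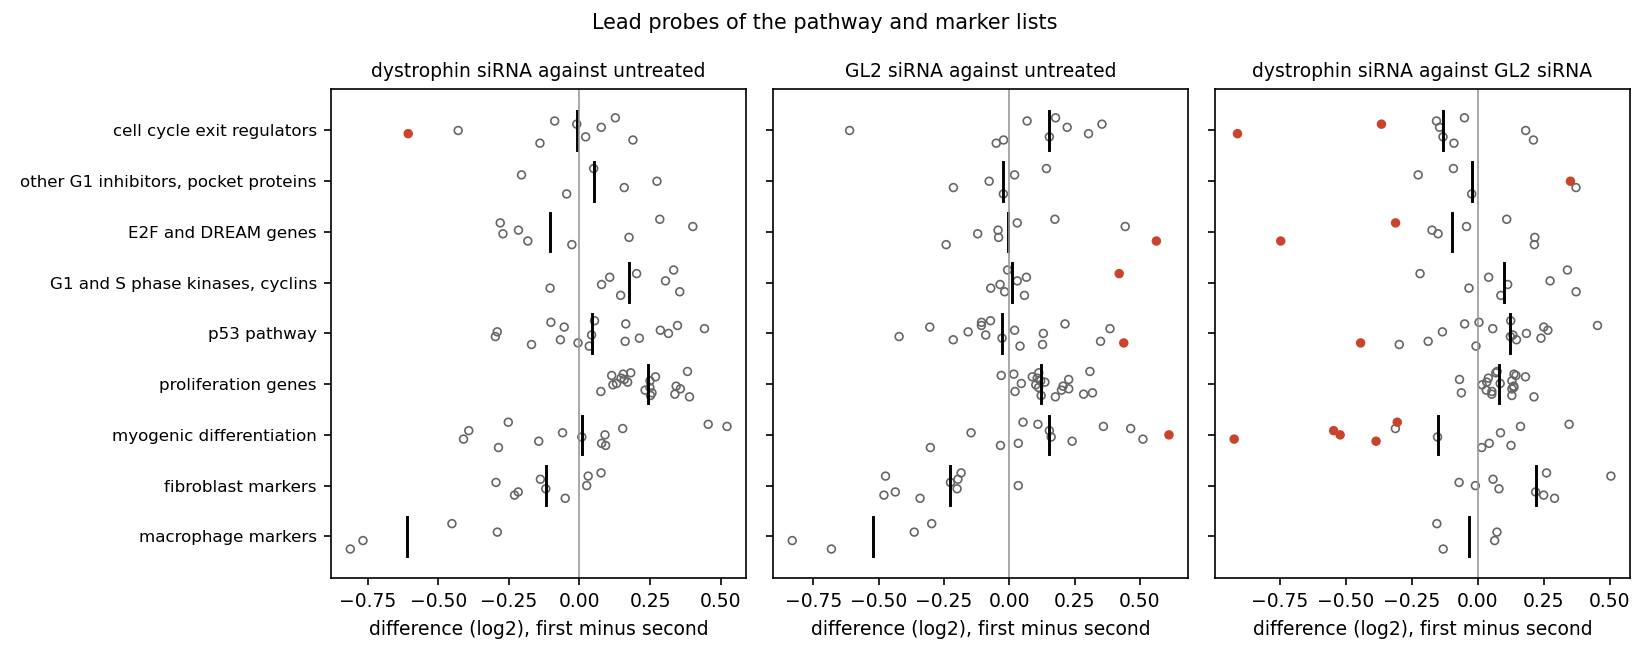
Difference in log2 level (x axis, first group minus second) of the lead probe of each detected gene in the members and in 8 pathway and marker lists (y axis), in 3 panels for the 3 comparisons, with a bar at each list's median and filled points for genes past the adjusted threshold. Proliferation genes sit at 0.08 to 0.39 against untreated with none past the threshold, and 5 myogenic genes are filled on the lower side in the comparison of the siRNAs.

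Between the siRNAs 5 of the 13 detected myogenic genes fell, where 9.09% of all probes detected on every array passed in either direction: *Ckm*, muscle creatine kinase (-0.92, adjusted p = 1.7e-05), *Myf6*, a myogenic factor (-0.55, adjusted p = 0.0017), *Mef2a*, a transcription factor of muscle genes (-0.52, adjusted p = 0.012), *Cav3*, muscle caveolin (-0.39, adjusted p = 0.019), and *Tnnt3*, fast troponin T (-0.30, adjusted p = 0.0057). With median centring *Cav3* and *Tnnt3* had adjusted p of 0.069 and 0.054. The other 8 did not pass, among them *Myog* at 0.35 (adjusted p = 0.064) and *Acta1* at 0.02. *Mef2a* was also higher with GL2 siRNA than untreated (0.61, adjusted p = 0.042, lost without any untreated array, GL2 siRNA array 2, 4, 5, 6 or 7, or dystrophin siRNA array 4 or 5, up to 0.16, with median centring, 0.082, and with only the compared groups, 0.10). *Ckm* ran from 11.97 to 12.54 with dystrophin siRNA, 12.44 to 12.97 untreated and 13.00 to 13.35 with GL2 siRNA. Its group means had the order seen for *Cdkn1a* and also for *E2f2*. Unlike *Cdkn1a*, its dystrophin siRNA arrays overlapped the untreated ones, and that difference did not pass by limma (-0.41, adjusted p = 0.19). The list's median was -0.15 between the siRNAs and 0.01 against untreated. Summed over 13 genes, the linear signal was 141719 to 151882 with dystrophin siRNA, 155550 to 163411 untreated and 152438 to 160368 with GL2 siRNA. Its part in the *Cdkn1a* difference was not tested.

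Markers of other cells did not pass, apart from 1 smooth muscle gene. The 9 fibroblast genes summed to 48705 to 78979 with dystrophin siRNA, 43524 to 63507 with GL2 siRNA and 57701 to 70608 untreated, with a median difference of 0.22 between the siRNAs. The 4 macrophage genes, *Adgre1*, *Cd14*, *Lyz2* and *Tyrobp*, summed in the same order of groups to 3529 to 9504, 3634 to 9365 and 6173 to 7993, with a median difference of -0.61 against untreated and -0.03 against GL2 siRNA, and *Ptprc* and *Itgam* were undetected. The 6 endothelial genes summed to 846 to 1115, 938 to 1259 and 951 to 1090, the 2 adipocyte genes to 198 to 1207, 280 to 1463 and 436 to 621, and the 2 Schwann cell genes to 685 to 1053, 607 to 915 and 850 to 953, with *Fabp4*, *Lep* and *S100b* undetected. Of the smooth muscle genes *Tagln* was higher with dystrophin than GL2 siRNA (0.66, adjusted p = 0.018), the sum of 4 was 41441 to 51521, 41678 to 46967 and 44818 to 48090, and *Cnn1* was undetected. Of 8 interferon genes measured, *Ifit2* passed by limma, higher with dystrophin than GL2 siRNA (0.46, adjusted p = 0.025). This call was lost without GL2 siRNA array 1, 2 or 7 or dystrophin siRNA array 4, 5 or 6 (up to 0.061). It was also lost with only the compared groups (0.056). The direction of *Ifit2* was not that of the list: between the siRNAs 1 of the 5 detected was higher and 4 were lower (median -0.22). The 5 detected interferon genes summed to 1115 to 2037 with dystrophin siRNA, 1328 to 2498 with GL2 siRNA and 1137 to 1270 untreated. On this sum every GL2 siRNA array stood above every untreated array. The same separation held for *Cdkn1a* and *Gadd45a*, but also for probes of *Cdkn2c*, *Ccnd1*, *E2f2*, *Ccng1*, *Cdk7*, *Mef2a* and *Ckm*. The median difference of the 5 interferon genes was 0.66 for GL2 siRNA against untreated. An unadjusted p under 0.05 was given by 4 of 5, beside 18.6% of all probes detected on every array. None of the 5 passed the adjusted threshold by limma (lowest adjusted p = 0.063). The part of these in the member differences was not tested.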

How the data were processed

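Primary myotube RNA was hybridised to Illumina MouseWG-6 v1.1 arrays, 1 per culture, and groups and replicate numbers were taken from the sample titles. The authors deposited mean bead signals as linear intensity without background correction, each with a detection p-value, and intensity values after RMA background correction, log2 transformation and quantile normalization with lumi, whose version is not given in the sources used here.

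The same steps were applied to the bead signals in R 4.3.3. The result differed from the deposited normalized values by 0.0025 (log2) in the median and by 0.022 at most. No probe was filtered, since a filter changes the number of tests. All 18 arrays entered 1 limma 3.58.1 model (lmFit, eBayes) with 3 groups and no block. The study's methods name limma and the Benjamini-Hochberg adjustment, applied here over all 46632 probes, and state neither the model nor a block. The number of arrays limits the precision. The fit was tested on simulated data.

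Symbols came from the platform annotation, with 29976 probes having 1 symbol, 10 several and 16646 none, and these are named by ID only. Promoter sequences were RefSeq's, build GRCm38.p6. The annotation of the probes names no build, so no probe positions are given. The members and lists were chosen with earlier results of these data known. The text names every member probe, *Dmd*, list genes whose lead probe passed in at least 1 comparison, the 5 probes most correlated with *Cdkn1a* before and after removing group means, and examples of lists chosen after their values were seen.

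Same-numbered dystrophin and GL2 siRNA arrays deviated from their group means together (r = 0.42 to 0.60 in 7 pairs), so the numbers were taken to pair them. This rests on the data, as no label says what the number marks. Correlations between differently numbered arrays were not set beside these, so the number and the set of an array are not told apart. With untreated arrays the correlations were -0.04 to 0.25, and the numbers were not taken as pairs. Alternatives were another background correction, median centring, the authors' values, a detection filter, fits of the compared groups, replicate blocks and leaving out each array.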

Additional observations from a re-analysis of the deposited data

Results flagged for a closer look

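Of 93 sets of array values tested for a single array apart from its group, 7 had such an array by Dixon's criterion, where chance gives about 1 in 20. Among the members, *Ccnd1* ILMN_2601471 read 10.99 on dystrophin siRNA array 6, below the 11.33 to 11.57 of the other 6, and *Ccnd2* ILMN_1225932 read 8.05 on dystrophin siRNA array 7, below 8.33 to 8.45. No *Cdkn1a*, *Gadd45a* or *Cdkn2c* probe had such an array.

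Among the other named genes, *Cdkn2b* read 11.27 on GL2 siRNA array 3 (others 10.73 to 10.96), *E2f2* read 12.11 on GL2 siRNA array 2 (11.64 to 11.82), and *Ckm* read 13.35 on GL2 siRNA array 1 (13.00 to 13.13). *Myf6* read 11.42 on untreated array 2 (11.55 to 11.57), and *Tagln* read 7.13 on GL2 siRNA array 6 (7.54 to 7.84).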

How the results depend on the processing

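No member difference and no difference of another named gene changed its direction while past the threshold, over all alternatives run. Over all probes, 423 passed for dystrophin siRNA against untreated, 342 for GL2 siRNA against untreated and 1752 between the siRNAs. Background correction from the detection p-values gave 686 and 755 for the comparisons with untreated. The filter on detection gave 737, 811 and 2713, fits of the compared groups alone gave 267 and 217 with untreated, and the sets of arrays as a block, chosen after seeing the data, gave 698, 973 and 2735. Member probes called against untreated were 2, and 1 with median centring or with only the compared groups. For GL2 siRNA they were 0, and 1 with the filter or the sets as a block. Leaving out each array gave 247 to 465, 147 to 377 and 1472 to 1746 probes, and 0 to 2, 0 to 0 and 2 to 4 member probes.

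The replicate block gave 330, 274 and 2428 probes, and 2117 with the 7 siRNA pairs alone, and changed no member call. In the fit of all arrays this block also matched untreated to siRNA arrays by number, although those numbers were not taken as pairs. Its calls against untreated thus rest on a match that was not shown. Under it *Cdk7*, *Ccng1* and *Mef2a* lost their limma call for GL2 siRNA against untreated (adjusted p = 0.12, 0.096 and 0.095). *Ckm* gained one (0.022). The cause of these shifts was not tested. Dim probes such as those of *Rbl2* give no level, and with 4 untreated arrays the comparisons with them are the least precise.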
